A study of Mus musculus with 9 samples.

Results

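The genes described here, 9 in all and used as surface or secreted markers of homeostatic microglia, were followed across wild-type and amyloid-model mice: Tmem119, Gpr34, Siglech, Gpr84, Slc2a5, Cd164, Sparc, Olfml3 and Crybb1. They were taken by gene symbol, 9 of the 18571 genes in the deposited table. The symbols were listed with earlier results of these data known. All 9 passed the filter on low counts. Microglia, the resident macrophages of the brain, hold a set of transcripts in the healthy adult that other macrophages lack or express weakly, and this set is known to be remodelled around amyloid plaques. Its surface proteins sense lysolipids, sialic acids and other cues from neighbouring cells, while its secreted proteins enter the extracellular matrix. Not every gene here fits the heading of homeostatic surface genes: Sparc and Olfml3 encode secreted proteins, Crybb1 encodes an intracellular crystallin, and Gpr84 is known for its induction by inflammatory stimuli.

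The libraries came from cortex and hippocampus of C57BL6/j mice aged 9 months, from cells that were captured on plates coated with a CD45 antibody and lysed there. The 3 genotypes compared had 3 libraries each. The wild-type group (WT) carried no listed transgene. The APP/PS1 group carried disease-linked transgenes that lead to amyloid deposits. The APP/PS1:Cx3cr1-CreER:Cx43-flox/flox group, called Cx43 cKO here, carried in addition a floxed gene for connexin 43, a gap junction protein, and a tamoxifen-activated recombinase driven by the Cx3cr1 locus, which is active in microglia and also in other myeloid cells. Per the labels' protocols all 3 groups received tamoxifen by gavage at 8 months (0.1 mg/g on 5 days). The labels list no recombinase or floxed allele for WT and APP/PS1, so the effect of these alleles and that of connexin 43 loss cannot be told apart.

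Levels are given in CPM, the counts of a gene relative to a library total of fixed size after scaling by TMM, a trimmed mean of log ratios between libraries, and differences as log2 changes with their standard error (SE). A gene was called when the adjusted p of the edgeR quasi-likelihood test, computed over all 14696 tested genes, was under 0.05. In bulk RNA such as this, fewer cells of a type and less RNA per cell cannot be told apart.

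Total estimated counts were 18907681 to 19565354 per library, and the 9 genes had 2198 to 57714 counts each. The targeted gene Gja1, which encodes connexin 43, was measured first. Its counts were 682, 642 and 716 for WT, 727, 688 and 788 for APP/PS1, and 514, 484 and 539 for Cx43 cKO. It was thus reduced but still detected in Cx43 cKO, at a log2 change of -0.56 relative to APP/PS1 (SE 0.06; adjusted p 7.95e-09 by edgeR). Gja1 is mainly an astrocyte transcript, and the summed level of 12 astrocyte markers, Gja1 among them, was also lower in Cx43 cKO (566 to 579 CPM) than in APP/PS1 (744 to 769). Relative to WT the 2 measures went opposite ways: Gja1 was lower in Cx43 cKO (-0.32, edgeR adjusted p 7.62e-05), and the astrocyte sum was higher (528 to 536 CPM in WT), although its 12 markers were split, with 5 called higher and 4 lower. The part of these cells in the Gja1 difference was not tested. The Y-linked gene Ddx3y had at most 2 counts in the Cx43 cKO libraries and at least 4137 in the others, so that in both comparisons with Cx43 cKO sex-linked expression and connexin 43 genotype cannot be told apart. The labels do not say whether libraries of a group came from separate animals or how many animals were pooled, so p-values measure only the spread between these libraries, which may be technical. That spread was small, with a coefficient of variation of 0.877% to 7.25% over the 9 genes and 3 groups.

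The 9 genes did not move as a block. In APP/PS1 against WT, Gpr34, Siglech, Gpr84, Slc2a5, Cd164, Sparc and Olfml3 rose, while Tmem119 and Crybb1 fell. From APP/PS1 to Cx43 cKO, Slc2a5, Sparc and Olfml3 rose, and Gpr34, Siglech, Gpr84, Cd164 and Crybb1 fell. Between Cx43 cKO and WT, Gpr34, Siglech, Slc2a5, Sparc and Olfml3 rose, and Tmem119 and Crybb1 fell. The directions of Gpr34, Olfml3 and Crybb1 in all 3 contrasts, of Tmem119, Siglech, Slc2a5 and Sparc in Cx43 cKO against WT, of Tmem119 and Siglech in APP/PS1 against WT, and of Slc2a5 and Sparc in Cx43 cKO against APP/PS1 were the same, and passed the threshold, in all 23 alternative settings tried. The other calls depended on the scaling or on single libraries, as given with each gene.

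In numbers, 7 of the 9 genes were called higher and 2 lower in APP/PS1 against WT, where 26.9% of all tested genes were called higher and 32.0% lower (59.0% called in either direction). From APP/PS1 to Cx43 cKO, 3 were called higher, 5 lower and 1 was not called, where 27.3% of all tested genes were called higher and 27.7% lower (55.0% in either direction). For Cx43 cKO against WT, 5 were called higher, 2 lower and 2 were not called, where 24.7% of all tested genes were called higher and 23.0% lower (47.7% in either direction). These counts are for TMM and moved with the scale: in APP/PS1 against WT, 4 genes were called higher and 2 lower with the microglial reference or on FPKM, 5 higher and 2 lower with library totals, and 3 higher and 5 lower on TPM. On TPM the counts were 5 higher and 2 lower in Cx43 cKO against APP/PS1, and 5 higher and 4 lower for Cx43 cKO relative to WT. Calls were still more frequent among abundant genes. Of the 906 genes with a mean at or above that of the least abundant of the 9 (193.4 CPM), 83.8%, 78.9% and 73.1% were called in the 3 contrasts, so that being called sets these 9 little apart from other abundant genes. Their median absolute log2 change was 0.24, 0.18 and 0.19, and that of the 9 genes 0.34, 0.21 and 0.40. The libraries of the groups did not overlap for 9, 7 and 7 of the 9 genes, against 63.5%, 59.7% and 54.6% of all tested genes. The median log2 change of the 9 was 0.23, -0.10 and 0.24, beside -0.04, -0.01 and -0.01 over all tested genes. On TPM the medians of the 9 were -0.167, 0.090 and 0.148, so the first 2 had the opposite sign. All contrasts share libraries: WT serves as control of 2 of them, and APP/PS1 enters 2.

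**Figure D1:**
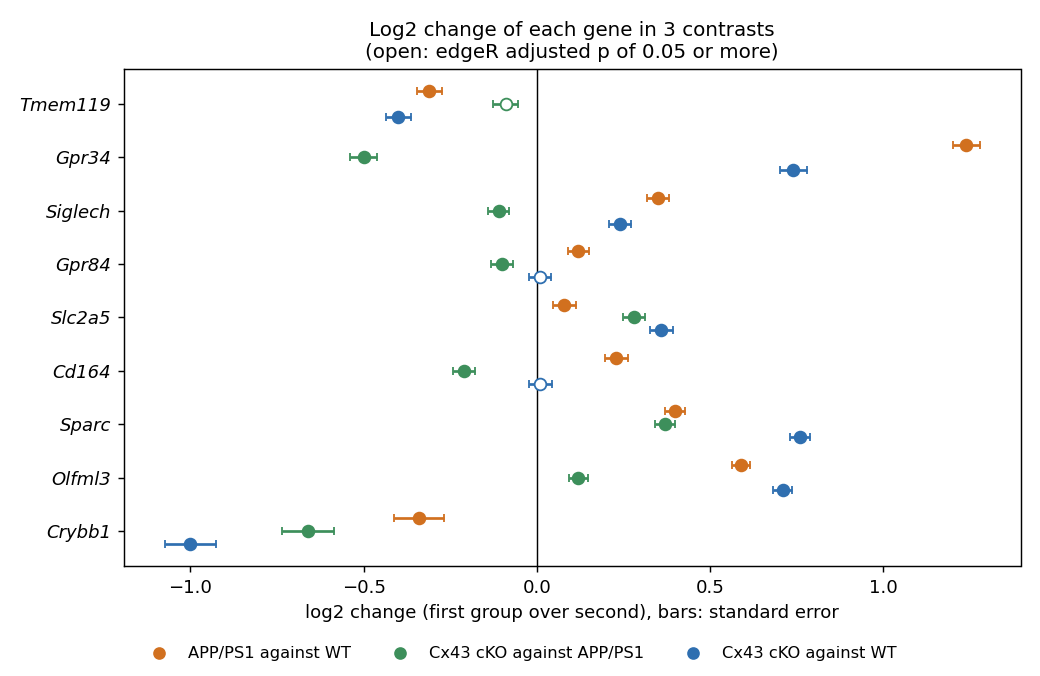
Log2 change (x axis) of each of the 9 genes in the 3 contrasts, with bars for the standard error of the edgeR fit; open points did not pass the threshold. Gpr34 reached 1.24 in APP/PS1 against WT and Crybb1 -1.0 in Cx43 cKO against WT, while Gpr84 stayed between -0.10 and 0.12.

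The scale matters for the smaller changes. Total-count scaling moved the median log2 change of all tested genes to -0.17 in APP/PS1 against WT and to -0.12 in Cx43 cKO against WT. Scaling to 10 microglial reference genes moved it to -0.165 and -0.11, and the deposited TPM values to -0.35 and -0.17. From APP/PS1 to Cx43 cKO the TPM values moved it to 0.145. Of the called genes in the 3 contrasts, 45.7%, 49.6% and 51.9% were higher with TMM, and 14.7%, 75.3% and 19.8% with TPM. A change on TPM below should be read against these shifts.

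Among the surface receptors, Gpr34, a G protein-coupled receptor for lysophosphatidylserine, changed most. Its gene lies on chromosome X, 13622650 to 13640859 (plus strand, GRCm38.p6). The WT libraries had 624, 580.2 and 599.6 CPM, those of APP/PS1 1478, 1354 and 1439 CPM and those of Cx43 cKO 1056, 955 and 1007 CPM. Every APP/PS1 library was above every Cx43 cKO library, and these were above every WT library. The level was 2.37-fold higher in APP/PS1 than in WT (log2 change 1.24, SE 0.039, edgeR adjusted p 1.59e-14). Of all tested genes 97.2% had a lower log2 change in that contrast. Cx43 cKO was below APP/PS1 (-0.50, SE 0.039, edgeR adjusted p 5.96e-09), by -0.26 when offsets for length and GC content were used and by -0.31 on TPM, and was 1.67-fold above WT (0.74, SE 0.039, edgeR adjusted p 4.43e-11). Gpr34 overlaps Cask on the opposite strand, a gene with 68.5 to 86 CPM here, and whether the counting used strand is not given in the sources used here.

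Tmem119, a transmembrane protein that is widely used to tell microglia from infiltrating macrophages, went the other way. It maps to chromosome 5, 113793729 to 113800396 (minus strand). In WT the level was 1058, 1123 and 1119.9 CPM, against 840.4, 908 and 906 CPM for APP/PS1 and 789.9, 853 and 857 CPM for Cx43 cKO. The WT libraries lay above all others, and the ranges of the APP/PS1 and Cx43 cKO libraries overlapped. Tmem119 fell in APP/PS1 against WT (-0.31, SE 0.036, edgeR adjusted p 2.54e-07), by -0.13 with the offsets and -0.705 on TPM. It also fell in Cx43 cKO against WT (-0.40, SE 0.036, edgeR adjusted p 1.19e-08). The Cx43 cKO to APP/PS1 difference of -0.09 did not pass (SE 0.036, edgeR adjusted p 0.0501). It passed without WT library 1 (-0.09, edgeR adjusted p 0.0336), APP/PS1 library 1 (-0.12, edgeR adjusted p 0.00559), Cx43 cKO library 2 (-0.10, edgeR adjusted p 0.0434) or Cx43 cKO library 3 (-0.11, edgeR adjusted p 0.0352). It also passed with the offsets, at a larger size (-0.192, edgeR adjusted p 3.1e-08), with no filter on low counts (edgeR adjusted p 0.0479), with at least 10 counts in every library (edgeR adjusted p 0.0388) with the 2 groups fitted alone (edgeR adjusted p 0.0432) and with the library number as a block (-0.086, edgeR adjusted p 3.6e-10). At each of the 3 library numbers the Cx43 cKO library was below the APP/PS1 library. On TPM it passed with the opposite sign (0.11, adjusted p 0.0375 by limma).

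Siglech encodes a sialic acid-binding lectin that signals through the adaptor Tyrobp in microglia, and it also marks plasmacytoid dendritic cells. Its gene lies on chromosome 7, 55768154 to 55779448 (plus strand). The WT libraries had 823, 838 and 855 CPM, those of APP/PS1 1024, 1079.8 and 1102 CPM and those of Cx43 cKO 961, 991 and 1027 CPM. WT was lowest without overlap, and the highest Cx43 cKO library exceeded the lowest APP/PS1 library. Siglech rose 1.27-fold in APP/PS1 against WT (0.35, SE 0.031, edgeR adjusted p 1.77e-10) and, for Cx43 cKO against WT, 1.18-fold (0.24, SE 0.031, edgeR adjusted p 2.14e-07). On TPM these changes were 0.145 (adjusted p 0.018 by limma) and 0.15 (adjusted p 0.0211 by limma). The fall in Cx43 cKO against APP/PS1 (-0.11, SE 0.030, edgeR adjusted p 0.00444) was lost with the offsets (-0.055, edgeR adjusted p 0.108, but 1.69e-07 with the offsets and the replicate block) and had the opposite sign on TPM (0.00, adjusted p 0.954 by limma). The summed level of 10 plasmacytoid dendritic cell markers was 295 to 308 CPM in WT, 383 to 396 for APP/PS1 and 343 to 352 for Cx43 cKO, the same order of groups as Siglech. Of these markers 8 could be tested, with 4 called higher and 4 lower in APP/PS1 against WT and 4 higher and 3 lower in Cx43 cKO against APP/PS1 (median log2 change 0.41, the direction opposite to that of Siglech), and Klk1 had under 10 counts in every library. The part of such cells in the Siglech values was not tested.

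Gpr84 encodes a receptor for medium-chain fatty acids on myeloid cells. It maps to chromosome 15, 103308233 to 103310670 (minus strand), and an annotated antisense gene, Gm49482, overlaps it. In WT the level was 620.2, 674 and 649 CPM, against 688, 716 and 704 CPM for APP/PS1 and 632, 668 and 662 CPM for Cx43 cKO. The APP/PS1 libraries lay just above the others, while WT and Cx43 cKO overlapped. With TMM, Gpr84 rose in APP/PS1 against WT (0.12, SE 0.031, edgeR adjusted p 0.00213), but the sign was opposite with library totals (-0.02), with the microglial reference (-0.01), with the offsets (-0.01), on FPKM (-0.02) and on TPM (-0.27, adjusted p 1.36e-05 by limma). Likewise the fall in Cx43 cKO against APP/PS1 (-0.10, SE 0.031, edgeR adjusted p 0.00655) was lost on FPKM (-0.075, adjusted p 0.082 by limma with a pseudocount of 1) and with the offsets (-0.02, edgeR adjusted p 0.571), and TPM gave 0.09 (adjusted p 0.0347 by limma). Cx43 cKO and WT differed by 0.01 (SE 0.031, edgeR adjusted p 0.746), which became -0.09 under total-count scaling (edgeR adjusted p 0.0118) and -0.18 on TPM (adjusted p 0.000631 by limma), and turned to -0.02 without WT library 1. No direction of Gpr84 therefore held under every scaling.

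Slc2a5 encodes the fructose transporter GLUT5. Its gene lies on chromosome 4, 150119344 to 150144168 (plus strand). The WT libraries had 222, 232 and 228 CPM, those of APP/PS1 234, 243 and 243 CPM and those of Cx43 cKO 281, 293 and 299 CPM. The Cx43 cKO libraries stood apart at the top, and WT and APP/PS1 were separated by less than 3 CPM at their nearest libraries. Slc2a5 rose in Cx43 cKO against APP/PS1 (0.28, SE 0.032, edgeR adjusted p 3.3e-08) and against WT (0.36, SE 0.032, edgeR adjusted p 4.24e-10). On TPM these changes were 0.47 and 0.16. The call in APP/PS1 against WT (0.08, SE 0.032, edgeR adjusted p 0.0354) was lost without WT library 1 (0.06), WT library 3 (0.08), APP/PS1 library 2 (0.07) or APP/PS1 library 3 (0.07), with edgeR adjusted p of 0.145, 0.0679, 0.101 and 0.125. Leaving out any 1 of these 4 libraries gave 6 instead of 7 of the 9 genes called higher in that contrast. Its sign was opposite with library totals (-0.06), the microglial reference (-0.05), FPKM (-0.06) and TPM (-0.31, adjusted p 2.9e-06 by limma).

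Cd164 encodes a sialomucin of the cell surface and endosomes that takes part in adhesion of haematopoietic cells. It maps to chromosome 10, 41519500 to 41531042 (plus strand). In WT the level was 651, 611 and 637 CPM, against 769.9, 715 and 734 CPM for APP/PS1 and 665, 615 and 634 CPM for Cx43 cKO. The APP/PS1 libraries were highest without overlap, and WT and Cx43 cKO covered nearly the same range. Cd164 rose in APP/PS1 against WT (0.23, SE 0.033, edgeR adjusted p 1.87e-06), a call that was lost with the microglial reference (0.10, edgeR adjusted p 0.0592) and on FPKM (0.09, adjusted p 0.0735 by limma with a pseudocount of 1) and reversed on TPM (-0.17, adjusted p 0.0024 by limma). It fell in Cx43 cKO against APP/PS1 (-0.21, SE 0.033, edgeR adjusted p 4.98e-06), but not on TPM (-0.02, adjusted p 0.707 by limma). Cx43 cKO and WT differed by 0.01 (SE 0.033, edgeR adjusted p 0.796), with the opposite sign and a call under library totals (-0.10, edgeR adjusted p 0.0196) and TPM (-0.19, adjusted p 0.00196 by limma). The value turned to -0.01 without WT library 2 and to -0.02 without Cx43 cKO library 1.

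**Figure D2:**
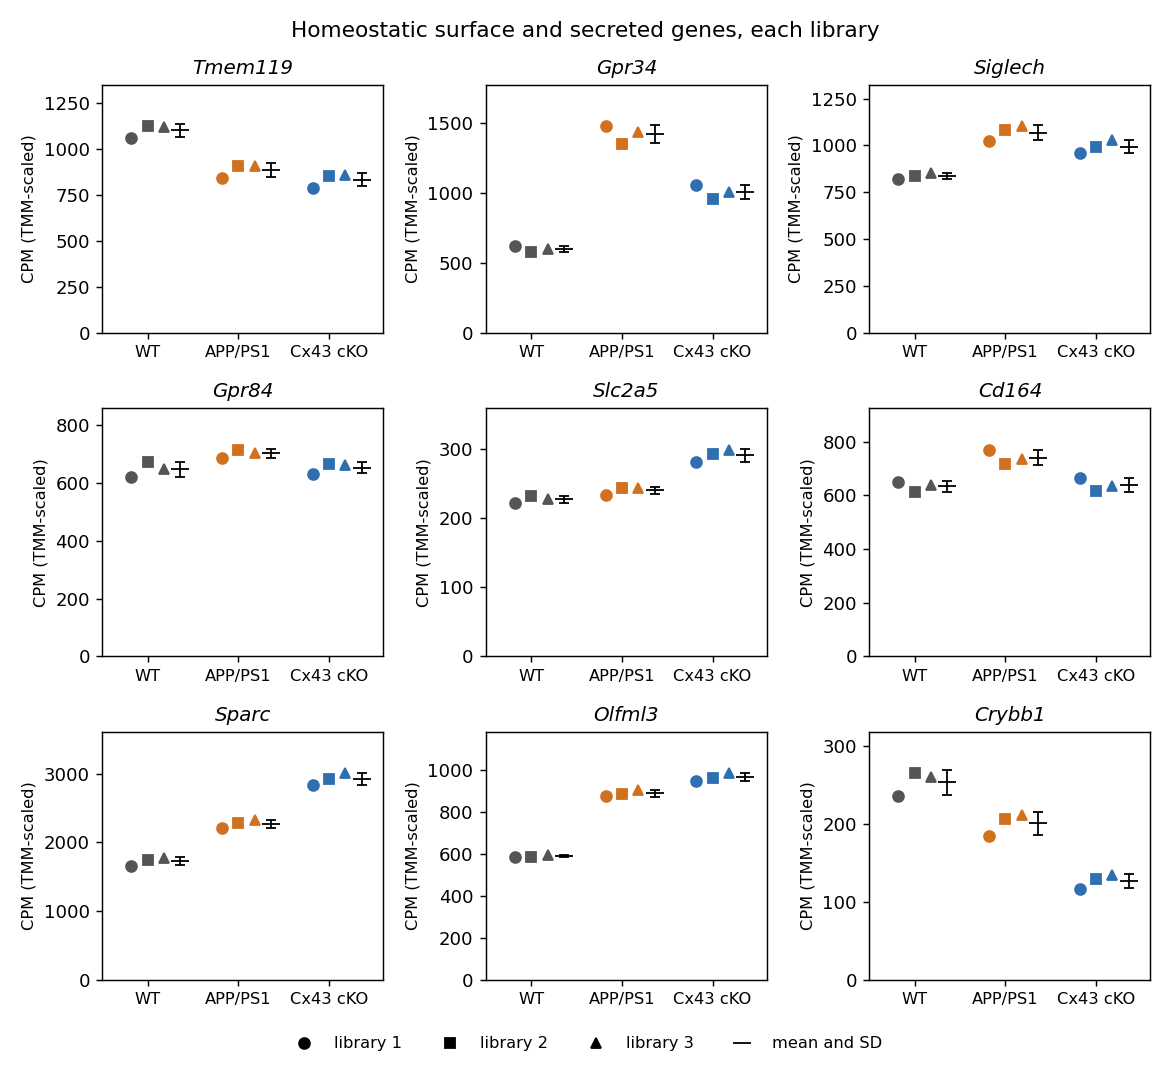
TMM-scaled CPM (y axis, from 0) of each gene in the 9 libraries, with the mean and SD (n = 3) beside each group; marker shapes are library numbers. Gpr34 was highest in APP/PS1 (1354 to 1478 CPM), Sparc in Cx43 cKO (2830.2 to 3007 CPM) and Crybb1 in WT (235 to 265 CPM).

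Sparc and Olfml3, both secreted, had their highest levels in Cx43 cKO, and Crybb1 its lowest. The 250 bases before the start sites of these 3 genes are shown because the 2 secreted genes rose together in all 3 contrasts with TMM while Crybb1 fell in all 3. Sequences are from RefSeq (GRCm38.p6), 5′ to 3′ on the strand of the gene. Capitals mark every match, on either strand, to AGGAAG (the core of sites for ETS factors such as PU.1), TGCTGAC (a Maf half-site), TGANTCA (AP-1), TATAAA (a core promoter box) or the site of interferon-regulatory factors (GAAA, any 2 bases, then GAAA again). They cover chr11:55420081-55420330 (minus strand) for Sparc, chr3:103738002-103738251 (minus strand) for Olfml3 and chr5:112255570-112255819 (plus strand) for Crybb1, whose window lies before a start site inside its gene record, which begins farther upstream.
Sparc: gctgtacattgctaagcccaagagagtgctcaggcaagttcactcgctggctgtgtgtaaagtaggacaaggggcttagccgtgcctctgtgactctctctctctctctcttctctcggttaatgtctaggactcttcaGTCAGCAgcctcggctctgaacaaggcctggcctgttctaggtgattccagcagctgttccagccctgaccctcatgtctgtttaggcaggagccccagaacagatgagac
Olfml3: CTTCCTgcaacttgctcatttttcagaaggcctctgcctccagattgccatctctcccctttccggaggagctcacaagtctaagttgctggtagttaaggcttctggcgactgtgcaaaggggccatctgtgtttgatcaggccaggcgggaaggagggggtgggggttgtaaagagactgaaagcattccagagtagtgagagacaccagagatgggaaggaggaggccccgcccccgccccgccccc
Crybb1: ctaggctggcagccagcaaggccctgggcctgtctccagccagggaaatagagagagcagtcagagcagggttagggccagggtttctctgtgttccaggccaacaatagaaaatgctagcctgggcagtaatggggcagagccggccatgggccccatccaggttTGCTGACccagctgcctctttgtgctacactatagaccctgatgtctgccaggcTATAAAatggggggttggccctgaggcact

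Crybb1 held TATAAA at position -30 and TGCTGAC at -84, counted from the start site to the first base of the match on the strand of the gene. Sparc held TGCTGAC on the other strand at -111, and Olfml3 held AGGAAG on the other strand at -250. Of all 32851 windows of this length, 12.4% held TATAAA, 3.81% TGCTGAC, 29.5% AGGAAG, 6.75% TGANTCA and 2.98% the interferon-regulatory site. The window was given for 7 of the 9 genes (Tmem119 and Gpr34 had none). Among the others, Gpr84 held AGGAAG at -205, -180 and -63 and Cd164 on the other strand at -132, while Siglech and Slc2a5 held no match. As for Crybb1, the windows of Gpr84 (chr15:103310439-103310688) and Siglech (chr7:55767934-55768183) lie before a start site inside the gene record. That of Gpr84 lies mostly within the record. TGANTCA and the interferon-regulatory site were in none of the 7 windows. Sparc and Crybb1, which moved in opposite directions, thus both held TGCTGAC, and the windows of Sparc and Olfml3 shared no match. No matches overlapped in these windows, and a match is a description of the letters and not of binding.

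Sparc encodes a matricellular protein that binds collagen and is also made by endothelial, mural and fibroblast cells. Its gene lies on chromosome 11, 55394159 to 55420080 (minus strand). The WT libraries had 1660.0, 1737 and 1772 CPM, those of APP/PS1 2200.4, 2273 and 2324 CPM and those of Cx43 cKO 2830.2, 2921 and 3007 CPM. The 3 groups were separated at every library, in the order WT, APP/PS1, Cx43 cKO. Sparc rose 1.32-fold in APP/PS1 against WT (0.40, SE 0.029, edgeR adjusted p 6.77e-12), a direction that turned on TPM (-0.03, adjusted p 0.374 by limma). It rose 1.29-fold from APP/PS1 to Cx43 cKO (0.37, SE 0.029, edgeR adjusted p 3.79e-11; 0.56 on TPM) and was 1.69-fold above WT in Cx43 cKO (0.76, SE 0.029, edgeR adjusted p 9.99e-18; 0.53 on TPM). In Cx43 cKO the summed endothelial markers were at 505 to 525 CPM, and the summed mural and fibroblast markers at 626 to 644 CPM. Both were lower than in APP/PS1 (716 to 739 and 843 to 869 CPM) and in WT (629.7 to 641 and 1049 to 1092 CPM). Relative to WT, the endothelial sum was higher in APP/PS1, with 3 of its 10 markers called higher and 4 lower. The mural and fibroblast sum was lower there, with 7 of its 11 markers called lower. The part of these cells in the Sparc values was not tested.

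Olfml3 encodes a secreted glycoprotein of the olfactomedin family. It maps to chromosome 3, 103735394 to 103738001 (minus strand). In WT the level was 587, 586 and 595 CPM, against 876, 885 and 906 CPM for APP/PS1 and 948, 963 and 986 CPM for Cx43 cKO. The groups followed the same order as for Sparc, without overlap, and with TMM most of the difference lay between WT and the other 2 groups, while on TPM the step from APP/PS1 to Cx43 cKO was the larger. Olfml3 rose 1.51-fold in APP/PS1 against WT (0.59, SE 0.027, edgeR adjusted p 1.82e-16; 0.20 on TPM), 1.09-fold from APP/PS1 to Cx43 cKO (0.12, SE 0.027, edgeR adjusted p 0.00043; 0.31 on TPM) and 1.64-fold in Cx43 cKO against WT (0.71, SE 0.027, edgeR adjusted p 5.48e-18).

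Crybb1 encodes a beta-crystallin, a structural protein of the lens, and its transcript is a known marker of microglia. The gene lies on chromosome 5, 112254563 to 112269585 (plus strand). The WT libraries had 235, 265 and 259.6 CPM, those of APP/PS1 184, 206 and 211 CPM and those of Cx43 cKO 116, 129 and 134 CPM. The 3 groups were separated, in the order opposite to Sparc. Crybb1 fell in APP/PS1 against WT (-20.8%, log2 change -0.34, SE 0.071, edgeR adjusted p 0.00341), from APP/PS1 to Cx43 cKO (-36.8%, log2 change -0.66, SE 0.075, edgeR adjusted p 8.04e-05). From WT to Cx43 cKO its log2 change was -1.0 (SE 0.074, edgeR adjusted p 5.69e-06). Crybb1 is short (831 nt, as implied by its deposited FPKM) and rich in G and C (61.8%, above 98.2% of genes with a transcript), and the size of its changes moved with offsets for both. With the offsets the value was -0.825 in APP/PS1 against WT (edgeR adjusted p 1.42e-10). It was -0.240 from APP/PS1 to Cx43 cKO (edgeR adjusted p 0.000347), and -1.065 overall from WT (edgeR adjusted p 1.08e-11). On TPM the value was -0.728 in APP/PS1 against WT (adjusted p 1.14e-06 by limma) and -0.468 from APP/PS1 to Cx43 cKO (adjusted p 7.3e-05 by limma). The fall against WT in Cx43 cKO lay between -1.2 and -0.94 under all alternatives, while its division between the 2 steps moved with the scale.

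Dividing the counts of 2 genes within a library removes the library scaling, and these ratios show that the composition of the set changed. All exact permutation p-values below are two-sided, over 3 libraries against 3, and cannot go under 0.1. Relative to Tmem119, Gpr34 was at 0.590, 0.517 and 0.535 in WT, at 1.76, 1.49 and 1.59 in APP/PS1 and at 1.34, 1.12 and 1.18 in Cx43 cKO. Gpr34 had fewer counts than Tmem119 in every WT library and more in every other library. Sparc per Tmem119 was 1.57 ± 0.0184 in WT, 2.56 ± 0.057 for APP/PS1 and 3.51 ± 0.0792 for Cx43 cKO (SD, n = 3), with separated groups (exact permutation p 0.1 for each pair). Olfml3 per Tmem119 rose in the same order, 0.536 ± 0.0171, 1.01 ± 0.0345 and 1.16 ± 0.0368, as did Slc2a5 per Tmem119, 0.206 ± 0.00294, 0.271 ± 0.00593 and 0.349 ± 0.00624 (SD, n = 3), both with separated groups (exact permutation p 0.1 for each pair). The ratio of Crybb1 to Tmem119 was 0.230 ± 0.00707 in WT and 0.226 ± 0.00681 in APP/PS1 (SD, n = 3; exact permutation p 0.6) and 0.152 ± 0.00462 in Cx43 cKO, below both (exact permutation p 0.1). Siglech per Tmem119 was 0.763 ± 0.016 in WT, and APP/PS1 (1.21 ± 0.016) and Cx43 cKO (1.19 ± 0.0281) overlapped (SD, n = 3; exact permutation p 0.6). Gpr84 per Tmem119 was 0.589 ± 0.0105, 0.795 ± 0.0216 and 0.785 ± 0.0139, and Cd164 per Tmem119 was 0.576 ± 0.0364, 0.838 ± 0.0685 and 0.768 ± 0.0653 in the 3 groups (SD, n = 3). For these 2 ratios WT was lowest (exact permutation p 0.1), and the ranges of APP/PS1 and Cx43 cKO overlapped (exact permutation p 0.6 and 0.3). Compared by library number, Cd164 per Tmem119 was lower in Cx43 cKO for 3 of 3 numbers, by -8.8% to -8.1%, and so were Gpr84 per Tmem119, by -2.3% to -0.6%, and Siglech per Tmem119, by -2.4% to -0.1%, for 3 of 3 each. Ratios of raw counts carry no correction for GC content or length. With the offsets, the log2 change of Crybb1 minus that of Tmem119 was -0.69 in APP/PS1 against WT (-0.02 with TMM) and -0.05 in Cx43 cKO against APP/PS1 (-0.58 with TMM), so that the fall moved to the other step. In the latter contrast Gpr34 minus Tmem119 went from -0.42 to -0.07, and the signs for Siglech (0.14), Cd164 (0.05) and Gpr84 (0.18) became positive. In APP/PS1 against WT the values relative to Tmem119 shrank with the offsets but kept their sign. They went from 0.66 to 0.4 for Siglech, from 0.54 to 0.27 for Cd164 and from 0.43 to 0.12 for Gpr84.

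Sparc and Crybb1 moved apart. There were 6.81 ± 0.256 Sparc counts per Crybb1 count in WT, 11.3 ± 0.531 for APP/PS1 and 23.1 ± 1.04 for Cx43 cKO (SD, n = 3; exact permutation p 0.1 for each pair). With the offsets the log2 change of Sparc minus that of Crybb1 was 1.30 in APP/PS1 against WT (0.73 with TMM) and 0.53 in Cx43 cKO against APP/PS1 (1.03 with TMM), so that the larger step was the other one. This pair was chosen after its values were seen. A ratio within a library shows unequal change and does not tell which gene changed.

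**Figure D3:**
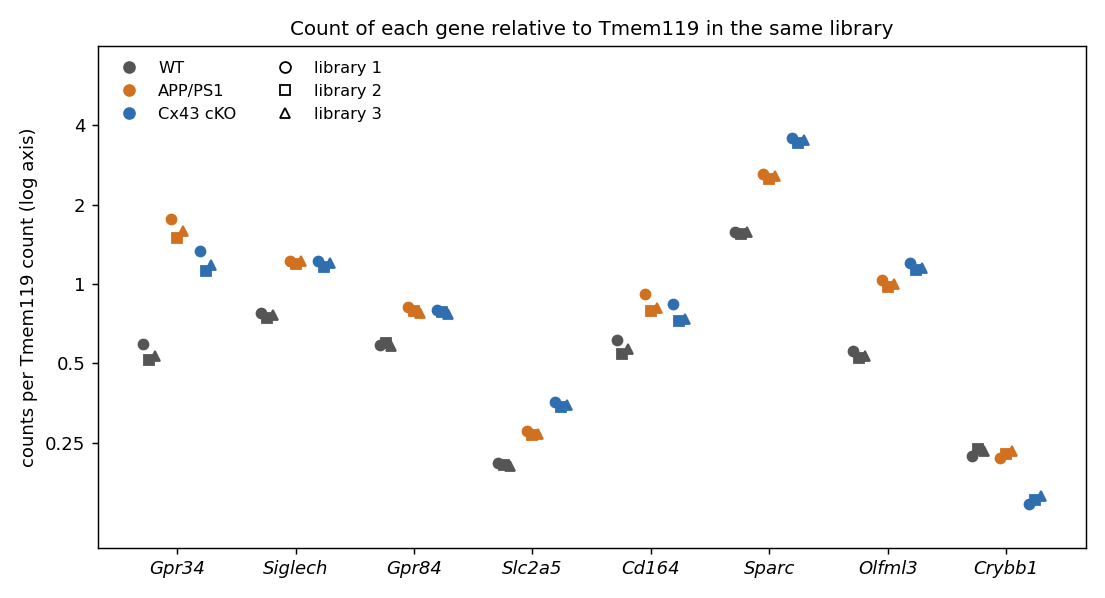
Counts of each gene per Tmem119 count in the same library (log y axis), colours for groups and marker shapes for library numbers. The WT libraries lie lowest for all genes but Crybb1, where WT (mean 0.230) and APP/PS1 (0.226) coincide and Cx43 cKO (0.152) lies below; the offsets, not plotted, move that step to APP/PS1 against WT (-0.69 on the log2 scale).

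Summed over the 9 genes with TMM, the level was 6614 CPM ± 121 in WT, 8415 CPM ± 142 for APP/PS1 and 8428 CPM ± 170.2 for Cx43 cKO (SD, n = 3). The sum was 1.27-fold higher in both disease-model groups than in WT (exact permutation p 0.1), and APP/PS1 and Cx43 cKO overlapped (exact permutation p 0.9). The sum depended on the scale. As a share of all counts it was 1.16-fold and 1.18-fold above WT in APP/PS1 and Cx43 cKO. On TPM it was 8201 ± 169 in WT, 7940.2 ± 167 for APP/PS1 and 8884 ± 201 for Cx43 cKO (SD, n = 3), so that the ranges of APP/PS1 and WT overlapped (exact permutation p 0.2), though APP/PS1 was lower at 3 of 3 library numbers by -4.3% to -2.5%, and Cx43 cKO was 1.12-fold above APP/PS1 (exact permutation p 0.1). The shares within the sum differed: Sparc gave 26.9% ± 0.343 of the summed counts for APP/PS1 and 34.6% ± 0.400 for Cx43 cKO, whereas Gpr34 gave 16.9% ± 0.834 and 11.9% ± 0.718 (SD, n = 3). In WT, Sparc gave 26.0% ± 0.390, Tmem119 16.6% ± 0.292 and Gpr34 9.10% ± 0.473 (SD, n = 3).

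Levels of different genes were compared on the deposited TPM, which accounts for length. In WT the order was Sparc (1963 TPM ± 57.9), Tmem119 (1246 ± 39.8), Gpr84 (1010.3 ± 40.5), Siglech (901 ± 26.4), Olfml3 (823 ± 7.42), Gpr34 (752 ± 28.5), Crybb1 (717 ± 44.7), Cd164 (536 ± 18.0) and Slc2a5 (252 ± 5.06; SD, n = 3). Only Gpr34 and Crybb1 overlapped among neighbours in that order. In APP/PS1, Gpr34 came after Sparc (1365 TPM ± 61.6), Tmem119 was sixth (764 ± 32.3; SD, n = 3), and the neighbours Siglech and Olfml3 overlapped. In Cx43 cKO the order began with Sparc (2830.2 TPM ± 84.0), Olfml3 (1176 ± 23.0) and Gpr34 (1102 ± 59.3; SD, n = 3), and the neighbours Olfml3 and Gpr34, and Crybb1 and Slc2a5, overlapped. Sparc ranked between 34 and 36 of all genes by TPM in the Cx43 cKO libraries, between 85 and 96 in APP/PS1 and between 61 and 68 in WT. The ranks of Crybb1 were 212 to 235 in WT, 300 to 339 for APP/PS1 and 430 to 494 for Cx43 cKO. The order of the 3 groups was the same on CPM, FPKM and TPM for Gpr34, Olfml3 and Crybb1 only.

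**Figure D4:**
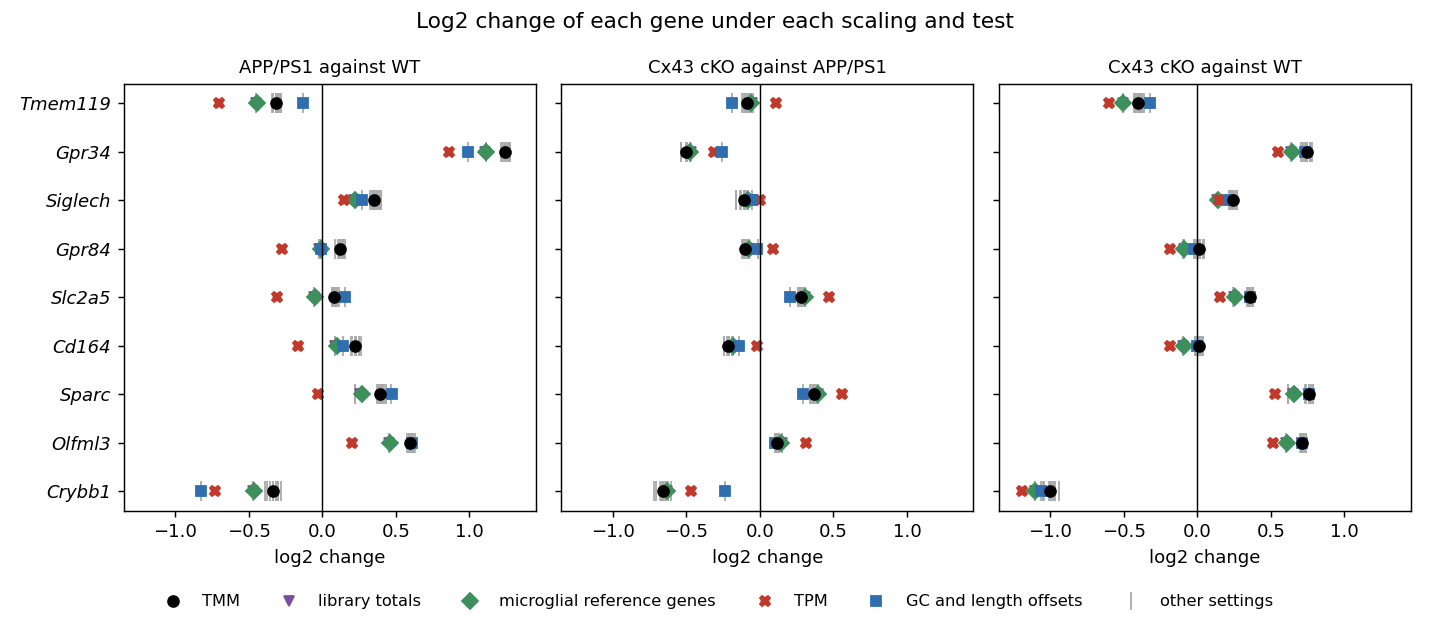
Log2 change (x axis) of each gene in the 3 contrasts under each scaling or test; each symbol is a setting, and the points for library totals lie mostly beneath those for the microglial reference. The TPM points of Slc2a5 (-0.31), Gpr84 (-0.27) and Cd164 (-0.17) lie across 0 from the TMM points in APP/PS1 against WT, while all points of Gpr34 (0.86 to 1.28) and Olfml3 (0.20 to 0.63) lie above 0.

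The rest of the homeostatic programme was also mixed. Of 32 further homeostatic genes, all tested, 9 were called higher and 15 lower in APP/PS1 against WT (median log2 change -0.04), 10 higher and 10 lower in Cx43 cKO against APP/PS1 (median -0.02), and 9 higher and 16 lower in Cx43 cKO against WT (median -0.07). The shares called higher were 28.1%, 31.2% and 28.1%, beside 26.9%, 27.3% and 24.7% of all tested genes, and those called lower 46.9%, 31.2% and 50%, beside 32.0%, 27.7% and 23.0%. In APP/PS1 against WT the falls included those of Adgrg1, an adhesion receptor (-0.56, SE 0.031; -0.32 with the offsets), Csf1r, the receptor that microglia need to survive (-0.48, SE 0.023; -0.29 with the offsets), and Cd33, a Siglec (-0.46, SE 0.036; -0.60 with the offsets). Among the rises in that contrast were those of Fcrls, an Fc receptor-like gene (3.02, SE 0.028), and Cst3, a secreted protease inhibitor (1.15, SE 0.032). From APP/PS1 to Cx43 cKO, Cx3cr1, the fractalkine receptor whose locus drives the recombinase, fell (-0.88, SE 0.025), as did Cst3 (-0.73, SE 0.032) and Ltc4s (-0.63, SE 0.041). Cd33 (0.32, SE 0.036), Slco2b1 (0.24, SE 0.033) and Csf1r (0.23, SE 0.023) rose. Against WT, the genes that changed in Cx43 cKO included Cx3cr1 (-0.90, SE 0.025) and Liph (-0.52, SE 0.047), which fell, and Fcrls (2.67, SE 0.028), Cst3 (0.42, SE 0.032) and Upk1b (0.38, SE 0.045), which rose. All of these passed the edgeR threshold, their groups did not overlap, and their directions were the same under the 6 other scalings tried. Sizes moved more. In Cx43 cKO against APP/PS1 the offsets gave -0.21 for Ltc4s, 0.08 for Csf1r and -0.32 for Cst3. In APP/PS1 against WT, Csf1r was at -0.88 on TPM, and the offsets gave Cst3 0.64. The counts of the 32 genes also moved with the scale, to 4 higher and 27 lower on TPM in APP/PS1 against WT, 21 higher and 7 lower in Cx43 cKO against APP/PS1, and 4 higher and 23 lower in Cx43 cKO against WT. Library totals gave 6 and 22, 13 and 9, and 5 and 22. For comparison, 19 of 20 disease-associated genes, which are known to rise in microglia around plaques, were called higher in APP/PS1 against WT (median 1.97) and 20 of 20 in Cx43 cKO against WT (median 1.92). From APP/PS1 to Cx43 cKO, 6 of these 20 were called higher and 11 lower (median -0.21), but 9 and 9 both on TPM and with the offsets.

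Summed transcripts of markers of other cells differed between the groups. The 11 monocyte and neutrophil markers summed to 2796 to 2849.8 CPM in WT, 957 to 988 CPM for APP/PS1 and 9006 to 9228 CPM for Cx43 cKO. Of them 11 were called lower in APP/PS1 against WT and 11 higher in Cx43 cKO against APP/PS1. The 10 border macrophage markers summed to 586 to 596 CPM in WT, 449 to 463 for APP/PS1 and 372 to 390.0 for Cx43 cKO, the order of groups seen for Crybb1. Of these 10, 4 were called higher and 5 lower in APP/PS1 against WT, and 1 higher and 8 lower in Cx43 cKO against APP/PS1. The same order held for 6 erythroid markers, which summed to 1225 to 1278 CPM in WT, 248 to 275 for APP/PS1 and 99.1 to 109 for Cx43 cKO. The 5 B cell markers summed to 30.3 to 32.7, 10.1 to 11.6 and 19.1 to 20.1 CPM. The 19 early-response genes, known to rise during tissue dissociation, summed to 30914 to 32675 CPM in WT, 24852 to 26193 for APP/PS1 and 25901 to 27258 for Cx43 cKO. No marker of these lists was at 0 in all libraries. The 10 microglial reference genes, which include Csf1r, Aif1 and C1qa, summed to 19444 to 19778 CPM in WT, 21059 to 21703 for APP/PS1 and 20751 to 21249 for Cx43 cKO. This signal was thus present in every library. The sum cannot tell microglia from other CD45-captured cells that express the same genes. Single reference genes changed too, with 6 of the 10 called higher and 3 lower in APP/PS1 against WT. The part of the other cells in the values of the 9 genes was not tested. Relative to the summed reference counts of each library, Tmem119 differed by -26.5%, Gpr84 by -0.8%, Slc2a5 by -3.4% and Cd164 by 6.9% in APP/PS1 against WT (exact permutation p 0.1, 0.7, 0.1 and 0.2). From APP/PS1 to Cx43 cKO the differences were -4.0% for Tmem119 (exact permutation p 0.3), -35.6% for Crybb1 and 31.3% for Sparc (exact permutation p 0.1 each).

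The genes most like Tmem119 and Gpr84 in pattern were sought among 9163 genes with a mean of at least 10 CPM, by the root-mean-square difference of centred log2(CPM + 1) over the 9 libraries. For Tmem119 they were Nuak1 (0.023), Spock2 (0.032), Cyyr1 (0.036), Stab1 (0.037) and Rreb1 (0.038). Nuak1 had 165 CPM ± 4.0 in WT, against 134 CPM ± 3.35 for APP/PS1 and 128 CPM ± 3.94 for Cx43 cKO (SD, n = 3), the same steps as Tmem119 at a lower level. For Gpr84 they were Tex264 (0.026), Tomm40l (0.027), Lrp1 (0.029), Ppil2 (0.029) and Dag1 (0.030). Lrp1 had 1029 CPM ± 24.1 in WT, 1082 CPM ± 27.0 for APP/PS1 and 1010.4 CPM ± 32.9 for Cx43 cKO (SD, n = 3). On TMM-scaled CPM it thus changed little, as did Gpr84, whose TPM moved more.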

How the data were processed

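Poly-A RNA was sequenced with single-end reads of 50 nt by DNBSEQ, as stated in the labels' protocols. The submitters' processing notes name HISAT, Bowtie2, DESeq2 and the build GRCm38.p6. The counting program, annotation and use of strand are not given in the sources used here. Per the file headers, the deposited table gives estimated counts (with decimals), FPKM, TPM and normalised counts for each library. The deposited estimated counts carry no scaling. FPKM, as deposited, divides by length and library size, and each deposited TPM column sums to about the same total. The deposited normalised signal was not used, and neither were the authors' group means. Columns were matched to libraries by name, with 0 left unmatched.

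Estimated counts were rounded to whole numbers and tested with edgeR 4.0.16 in R 4.3.3 (quasi-likelihood, TMM, filterByExpr by group, robust dispersion, all 9 libraries, a mean per group). Benjamini-Hochberg adjustment ran over 14696 genes, and calls needed an adjusted p under 0.05. CPM used the scaled library sizes, and log2 CPM a pseudocount of 1. Sums and ratios were tested by exact permutation (two-sided). All 9 genes are named, with the 3 largest and 3 smallest called changes of the wider homeostatic list per contrast (some of these are not reported here), and the 5 genes closest in pattern to Tmem119 and to Gpr84. The genes and lists were chosen with earlier results of these data known. The steps were tested on data simulated for APP/PS1 against WT, with changed genes drawn from all tested genes. Of 50 genes changed 1.2-fold 23 were called, and of 50 changed 1.5-fold 40 were. False calls made up 1.85% of the calls.

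Same-numbered libraries deviated together from their group means in APP/PS1 and WT (r 0.15 to 0.29 over 10813 genes) and in Cx43 cKO and WT (0.11 to 0.30). The library numbers, which come from the labels, may therefore pair these groups. The main fit and the permutation tests did not use such a pairing, and their p-values ignore it. The replicate block, which uses it, was an alternative. The others were DESeq2 1.42.0 (size factors, Wald test), library totals, scaling to 10 microglial reference genes, limma-trend (limma 3.58.1) on log2(FPKM + 1), log2(FPKM + 0.1) and log2(TPM + 1), no filter, at least 10 counts in every library, the compared groups alone, an adjusted p of 0.01 and leaving out each library. Offsets per library by 10 bins of GC content (GENCODE release M21) and 10 bins of the length implied by the deposited FPKM, with and without the block, were added after seeing the data and cover 13477 genes. Promoter sequences and positions came from RefSeq tables of GRCm38.p6.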

Additional observations from a re-analysis of the deposited data

How the results depend on the processing

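Of 621 log2 changes of the 9 genes under the alternatives, 564 kept their direction and side of the threshold, 14 lost and 10 gained a call, and 33 changed sign. The number of genes called stayed within 1.5 times under every alternative. In APP/PS1 against WT, Slc2a5 turned to -0.058 with library totals, -0.050 with the microglial reference, -0.058 and -0.059 on FPKM with a pseudocount of 1 and 0.1, and -0.312 on TPM. Gpr84 turned to -0.020, -0.012, -0.020, -0.020 and -0.274 under the same settings and to -0.010 with the GC and length offsets, with or without the block. On TPM, Cd164 turned to -0.167 and Sparc to -0.032. In Cx43 cKO against APP/PS1, TPM gave 0.107 for Tmem119, 0.004 for Siglech and 0.090 for Gpr84. In Cx43 cKO against WT, where neither Cd164 nor Gpr84 was called, Cd164 turned to -0.096, -0.090, -0.096, -0.096 and -0.186 under the 5 scalings above, and Gpr84 to -0.094, -0.088, -0.094, -0.095 and -0.185, and to -0.026 with the offsets, with or without the block. Without WT library 1 or Cx43 cKO library 2, Gpr84 was -0.017 and -0.001 there (-0.017 to 0.044 over all left-out libraries). Without WT library 2 or Cx43 cKO library 1, Cd164 was -0.013 and -0.018 (-0.018 to 0.039 over all). The causes were not tested.

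With the replicate number as a block, 9319, 8851 and 7934 genes were called in the 3 contrasts, beside 8670, 8085 and 7010 without it. Same-numbered libraries of Cx43 cKO and APP/PS1 had r of 0.06 to 0.24, not above 0.1 for every pair, though 6 of 6 libraries correlated best with their own number. There the block gave Tmem119 a call (-0.086, edgeR adjusted p 3.6e-10). Added to the TMM fit, it changed no other call of the 9 genes; added to the offsets, it gave Siglech back its call in that contrast (-0.055, edgeR adjusted p 1.69e-07). Depth was no limit for these genes, the least of which had 2198 counts in a library.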

Other observations

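The small deviations between libraries of a group were shared across groups by library number. For 24 of 27 combinations of gene and number, the deviation from the group mean had the same sign in WT, APP/PS1 and Cx43 cKO. Library 1 was lower for Crybb1, with deviations of -7.2% (WT), -8.1% (APP/PS1) and -8.0% (Cx43 cKO), and for Tmem119, with -3.9%, -5.0% and -5.2%. It was higher for Gpr34, by 3.8%, 3.8% and 5.0%, and for Cd164, by 2.9%, 4.1% and 4.3%. Crybb1 and Tmem119 have transcripts rich in G and C (61.8% and 59.1%), and Gpr34 and Cd164 have the lowest GC content of the 9 genes (37.1% and 41.6%). Siglech, next lowest in GC content (45.5%), did not follow that order, with library 1 at -1.9%, -4.2% and -3.2%. What the library number stands for is not given in the labels, and the part of GC content in these deviations was not tested.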
